A study of Rattus norvegicus with 6 samples.

Results

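The transcription factor Nrf2, its regulators and its classical target genes were followed in the renal cortex of rats given TBBC, an antioxidant made of a pair of tert-butylated cresol rings joined through sulfur. The set held 10 genes, of 15645 named genes on the array, chosen by role with earlier results of these data known. They were Nfe2l2, which encodes Nrf2 itself, its regulators Keap1 and Sqstm1, partner Mafg, competitor Bach1, and targets Nqo1, Srxn1, Txnrd1, Hmox1 and Osgin1. All 24 probes assigned to them, of 61537 probes, were well above background on every array, so no member was lost to the filter on dim probes. The treated rats received TBBC at 300 mg/kg/day for 4 weeks (n = 3) and the control rats received corn oil, the vehicle, for 4 weeks (n = 3). All were male Sprague-Dawley rats, Crl:CD(SD), bought at 5 weeks of age, and each gave 1 one-colour (Cy3) Agilent array of whole renal cortex, a mixture of tubule, vascular, glomerular and interstitial cells. The design text calls the replicates biological.

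Nrf2 is a transcription factor whose amount is set mainly at the protein level. In unstressed cells Keap1, an adaptor of a cullin ubiquitin ligase, binds Nrf2 and has it degraded, and electrophiles or oxidants that modify cysteines of Keap1 let Nrf2 accumulate. Nrf2 then pairs with a small Maf protein and binds antioxidant response elements near genes for quinone reduction, thiol repair, heme breakdown and glutathione metabolism, while Bach1 occupies many of the same elements as a repressor. In the kidney this programme is known mostly from proximal tubule cells exposed to oxidants, heme and drugs.

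The level of a gene is given as its processed signal divided by the array's 75th percentile, so that a level of 1 equals that percentile, and each gene is represented by its brightest probe. Fold changes are differences of log2 levels, TBBC minus vehicle, with the standard error (SE) of limma fitted over 32956 transcripts, and a difference passed when its Benjamini-Hochberg adjusted p was under 0.05. On each array 67.1% to 70.9% of probes were well above background, and no spot was saturated. The TBBC arrays were more spread than the vehicle arrays, with a median SD per transcript of 0.23 against 0.13 on the log2 scale. The vehicle arrays and TBBC 1 lay on 1 slide and were scanned together (slide 1), and the other TBBC arrays lay on a slide of their own (slide 2). Proximal tubule markers fitted the labelled tissue: all 11 were tested and none lay below background throughout. Their summed level was 2143 to 2751 in TBBC rats and 2840 to 3106 in vehicle rats, without overlap. That gap turned on Kap, at 300, 427 and 223 in TBBC 1, 2 and 3, against 586, 551 and 554 in vehicle 1, 2 and 3. The list median was a log2 fold change of -0.31. Slc22a8 was higher on average (0.05) and the rest of the list lower. Sums were also lower without overlap for thick limb and distal tubule markers (164 to 371 in TBBC rats, 405 to 461 in vehicle rats). So were those of collecting duct (132 to 159 and 170 to 212.7) and endothelial markers (25.1 to 28.1 and 30.2 to 34.8). Umod, Aqp2 and Kdr made up most of these sums, and the list medians were log2 fold changes of -0.50, -0.32 and -0.16. Slc12a3, Scnn1b, Scnn1g, Cdh5 and Flt1 were higher on average in TBBC rats, and the rest of these lists lower. The hepatocyte sum was higher (17.8 to 214 and 4.25 to 15.1), carried by Fga and Fgb. Every other hepatocyte marker was lower on average, with a list median of -0.79, and Fgb is also on the injury list. Several of these averages lean on 1 vehicle array. Alb, Ttr and Serpina1 were highest in vehicle 1 (5.24, 3.10 and 0.324, against 0.091, 0.049 and 0.023 in vehicle 2). Cyp2c11 was highest in vehicle 3 (2.58, against 0.352 in vehicle 1). In bulk cortex, fewer cells of a type and less RNA per cell cannot be told apart. The 11 tested of 12 listed tubule injury markers summed to levels of 209, 536 and 371 (TBBC 1, 2 and 3), against 44.2, 43.5 and 43.2 (vehicle 1, 2 and 3), and 2 of them rose. Spp1 was the largest part of that sum in TBBC rats (151, 245 and 245). Fgb gave 125 in TBBC 2, against 14.0 and 8.72 in TBBC 1 and 3. Of the other 10 marker lists none held a transcript past the threshold in limma. The part of these marker levels in the results was not tested.

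Nqo1 rose in the TBBC-treated cortex and was the 1 member of 10 past the threshold, in a comparison where 0.255% of all transcripts were called higher and 0.276% lower. Srxn1, Hmox1, Txnrd1 and Bach1 were each at least 2-fold higher on average without passing, which makes 5 of 10 members with Nqo1, against 1.62% of all transcripts. Without TBBC 2 the count was 3, since Txnrd1 and Bach1 then had log2 fold changes of 0.77 and 0.72. No member was 2-fold lower, against 2.18% of all transcripts. None of the members was called lower. Without adjustment, limma gave a p under 0.05 for 6 members, all higher in TBBC (9.55% of all transcripts), and for 0 lower (10.4%; 20% in either direction). In 7 members every TBBC rat lay above every vehicle rat, as did 13.1% of all transcripts, and in 0 members did every TBBC rat lie below (15.2%; 28.3% in either direction). The median log2 fold change of the 10 members was 0.87, beside -0.02 over all transcripts tested. Since the members were chosen with earlier results known, the shares over all transcripts stand beside these counts as description and test nothing. The genes of the switch itself, Nfe2l2 and Keap1, had log2 fold changes of -0.01 and 0.12 and did not pass, and the members that differed most were targets. The panels of levels on each array show the groups apart for Nqo1 and Srxn1 and mixed for Nfe2l2 and Osgin1.

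**Figure D1:**
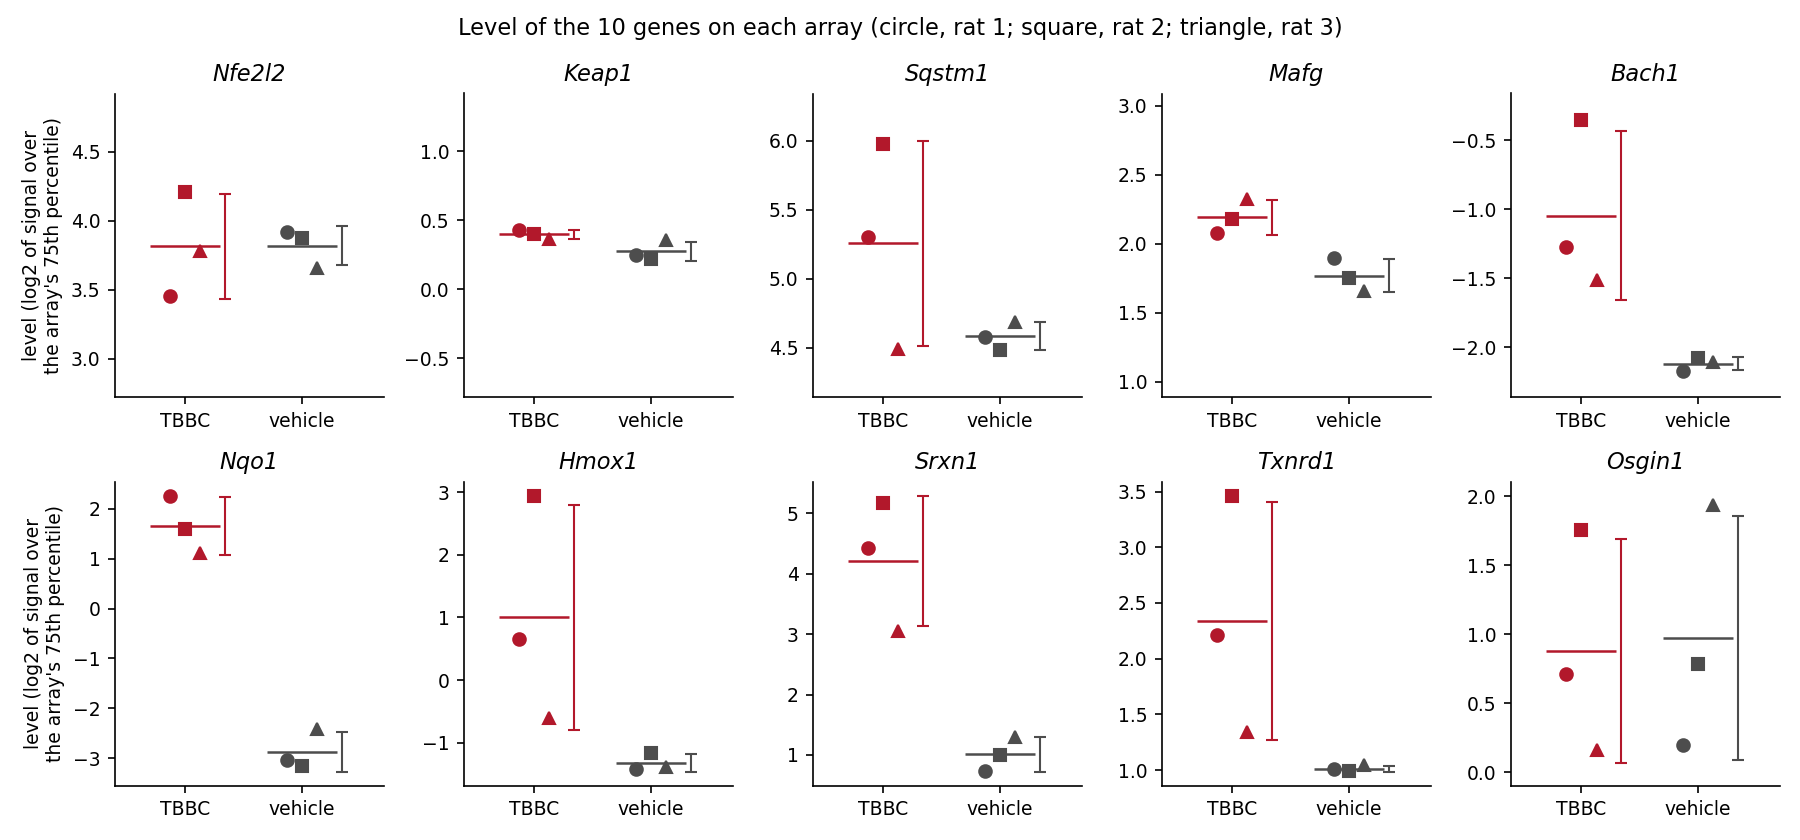
Level of each of the 10 genes on the 6 arrays, as log2 of the signal over the array's 75th percentile, TBBC in red and vehicle in grey. Circles, squares and triangles are rats 1, 2 and 3 of each group, horizontal lines are means and bars are SD (n = 3). Each panel has its own range. The TBBC rats lie above all vehicle rats in 7 panels, by the widest margin for Nqo1.

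Nfe2l2, the gene for Nrf2, had levels of 10.9, 18.5 and 13.7 in TBBC rats 1, 2 and 3, against 15.1, 14.7 and 12.6 in vehicle 1, 2 and 3. One TBBC rat lay below and one above all vehicle rats. The log2 fold change was -0.01 ± 0.21 (limma, adjusted p = 0.991), with a 95% interval of -0.51 to 0.49. Differences within that interval, in either direction, remain compatible with these arrays. The second Nfe2l2 probe gave -0.0039 ± 0.24 and the same order of TBBC rats.

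Keap1, the adaptor that holds Nrf2 down, had levels of 1.35, 1.32 and 1.29 in TBBC rats 1, 2 and 3, against 1.19, 1.17 and 1.28 in vehicle rats. The groups did not overlap, but the difference between the lowest TBBC rat and the highest vehicle rat was small. The log2 fold change was 0.12 ± 0.10 (limma, adjusted p = 0.526) with a 95% interval of -0.11 to 0.36. Keap1 had the smallest spread among TBBC rats of all members, with an SD of 0.03 on the log2 scale.

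Sqstm1 encodes p62, a cargo receptor of autophagy that binds Keap1 and is itself a target of Nrf2. Its levels were 39.5, 63.0 and 22.5 in TBBC rats 1, 2 and 3, against 23.9, 22.4 and 25.7 in vehicle rats. TBBC 1 and 2 lay above the vehicle range and TBBC 3 inside it. The log2 fold change was 0.67 ± 0.36 (limma, adjusted p = 0.351). The 5 Sqstm1 probes disagreed in sign. The 3 probes assigned to transcript NM_175843 gave 0.67 to 0.71, whereas the 2 assigned to NM_181550 gave 0.07 ± 0.38 and -0.52 ± 0.41. In TBBC 3 the NM_181550 probes differed from the vehicle mean by -0.77 and -1.46 on the log2 scale, and the NM_175843 probes by -0.14 to -0.03. No Sqstm1 probe passed, the difference between the sets of probes was not tested, and whether they detect different transcripts was not checked here.

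Mafg, a small Maf protein that lacks an activation domain and lets Nrf2 bind DNA, had levels of 4.21, 4.52 and 5.01 in TBBC rats 1, 2 and 3, against 3.72, 3.37 and 3.16 in vehicle rats. Every TBBC rat was higher than every vehicle rat. The log2 fold change was 0.42 ± 0.12 (limma, adjusted p = 0.143), and the other 2 probes gave 0.42 and 0.46. Mafg was the only member highest in TBBC 3.

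Bach1, the heme-sensitive repressor that competes with Nrf2 for small Maf partners, had levels of 0.413, 0.783 and 0.350 in TBBC rats 1, 2 and 3, against 0.222, 0.237 and 0.232 in vehicle rats. The vehicle rats were tightly grouped, with an SD of 0.05 on the log2 scale, and all TBBC rats lay above them. The average was 2.10-fold higher (log2 fold change 1.07 ± 0.30, limma adjusted p = 0.136), and the 3 Bach1 probes ran from 1.03 to 1.33. Without TBBC 2 the log2 fold change was 0.72.

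Nqo1 encodes a quinone reductase that converts quinones to hydroquinones by transfer of an electron pair, and it is the target most often used to read Nrf2 activity. Its levels were 4.79, 3.02 and 2.16 in TBBC rats 1, 2 and 3, against 0.122, 0.111 and 0.188 in vehicle 1, 2 and 3. The TBBC rats were 35.0-fold, 22.1-fold and 15.8-fold above the vehicle mean, and the groups lay far apart. On average Nqo1 rose 23.0-fold (log2 fold change 4.53 ± 0.34, limma adjusted p = 0.0140), with a 95% interval of 3.71 to 5.34, and ranked 16 of 32956 transcripts by p and 16 by rise. Its other probe rose 13.6-fold (log2 fold change 3.76 ± 0.35) when every probe was tested by itself (limma, adjusted p = 0.0189). The call was lost without vehicle 1 (adjusted p = 0.0877) or vehicle 2 (0.110), while the log2 fold change ran from 4.22 to 4.80 over the 6 fits that left out 1 array. With slide as a fixed term Nqo1 passed (log2 fold change 5.13, limma adjusted p = 0.0299). Slide 2 holds no vehicle array, so that fit, like one within slide 1, sets TBBC 1 alone against the vehicle rats. Within slide 1, TBBC 1 is assumed to vary as the vehicle rats do. Neither fit can show whether the call survives a slide effect over all TBBC rats.

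Srxn1 encodes sulfiredoxin, which restores over-oxidised peroxiredoxins. Its levels were 21.4, 35.9 and 8.27 in TBBC rats 1, 2 and 3, against 1.66, 1.99 and 2.47 in vehicle rats. All TBBC rats lay above the vehicle range, from 4.11-fold to 17.9-fold over the vehicle mean. The average was 9.21-fold higher (log2 fold change 3.20 ± 0.52) and just missed the threshold (limma, adjusted p = 0.0641). Without TBBC 3, the lowest of the 3, the log2 fold change was 3.79 and passed (adjusted p = 0.0242). The dimmer Srxn1 probe gave 2.09 ± 0.49 and placed TBBC 1 above TBBC 2, by 2.74 against 2.52 over the vehicle mean on the log2 scale.

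Txnrd1 encodes the cytosolic thioredoxin reductase, a selenoprotein that keeps thioredoxin reduced. Its levels were 4.64, 11.0 and 2.53 in TBBC rats 1, 2 and 3, against 2.01, 1.98 and 2.06 in vehicle rats. The vehicle SD of 0.03 on the log2 scale was the smallest of any member, and each TBBC rat lay above all 3. The average was 2.51-fold higher (log2 fold change 1.33 ± 0.50, limma adjusted p = 0.216), with the TBBC rats differing 4.35-fold among themselves. The 4 Txnrd1 probes gave 1.01 to 1.33. Without TBBC 2 the log2 fold change of the brightest was 0.77.

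Hmox1 encodes heme oxygenase 1, the inducible enzyme that opens heme to biliverdin, carbon monoxide and iron, and it is under strong repression by Bach1. Its levels were 1.58, 7.71 and 0.659 in TBBC rats 1, 2 and 3, against 0.373, 0.446 and 0.380 in vehicle rats. All TBBC rats exceeded the vehicle range, but they differed 11.7-fold among themselves, the widest span of any member. The average was 5.03-fold higher (log2 fold change 2.33 ± 0.84, limma adjusted p = 0.200). Without TBBC 2 the log2 fold change was 1.36 and without TBBC 3 it was 3.13, and neither passed. Macrophages also express Hmox1. The summed level of 16 tested myeloid markers of 18 listed was 112, 124 and 246 in TBBC rats 1, 2 and 3, against 117, 129 and 148 in vehicle rats, with Marco not above background and 0 members past the threshold. TBBC 2, highest in Hmox1, was within the vehicle range of this sum, and TBBC 3, highest in the sum, had the least Hmox1 of the TBBC rats. Lyz2 was the largest part of the sum (56.6, 65.1 and 133 in TBBC rats, 70.2, 67.4 and 81.2 in vehicle rats). The single markers were mixed. In TBBC 2, Cd14, C1qa, C1qb and Mrc1 lay above every vehicle rat. Csf1r, Adgre1, Ptprc, Fcer1g, Lyz2, Laptm5 and Fcgr3a lay below every vehicle rat there. Erythroid markers, 5 tested of 8 listed, summed to 181, 214 and 124 in TBBC rats, against 187, 211 and 196 in vehicle rats. The part of either cell type in the Hmox1 levels was not tested.

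Osgin1, an oxidative stress gene of growth inhibition, had levels of 1.64, 3.38 and 1.12 in TBBC rats 1, 2 and 3, against 1.15, 1.72 and 3.83 in vehicle 1, 2 and 3. The groups overlapped, with the highest value in vehicle 3 and the lowest in TBBC 3. The vehicle rats differed 3.34-fold, more than for any other member. The log2 fold change was -0.09 ± 0.56 (limma, adjusted p = 0.948), with a 95% interval of -1.45 to 1.26. It was 0.39 without vehicle 3 and 0.26 without TBBC 3.

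**Figure D2:**
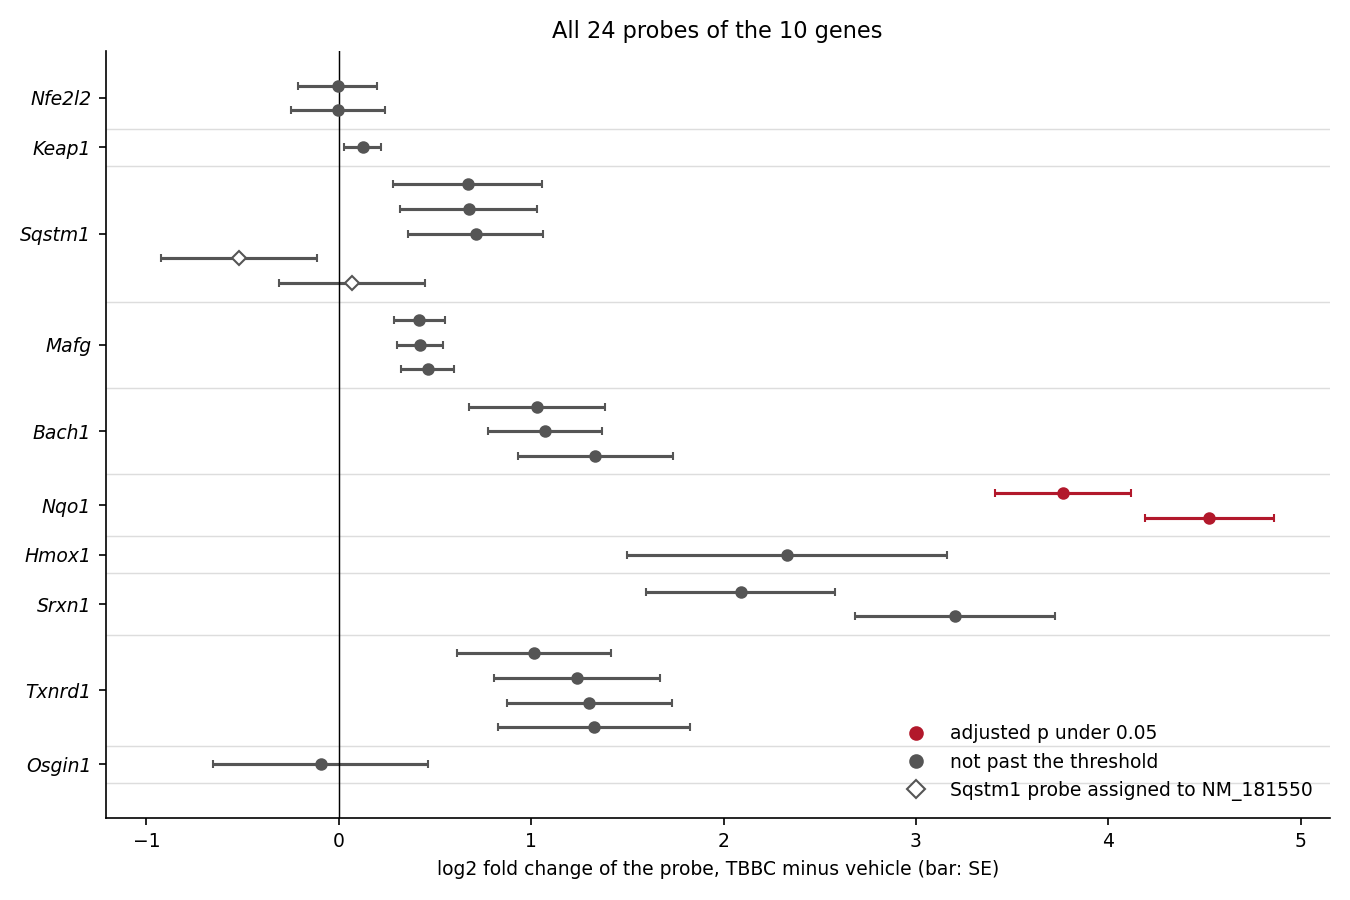
Log2 fold change of each of the 24 probes, TBBC minus vehicle, with SE bars (limma over all tested probes, n = 3 per group), grouped by gene down the vertical axis. Both Nqo1 probes pass the threshold (red), and the open diamonds show the 2 Sqstm1 probes assigned to NM_181550 apart from the other 3.

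Most members shared an order of the TBBC rats that Nqo1 did not show. TBBC 2 was the highest TBBC rat in 7 of 10 members and TBBC 3 the lowest in 8, whereas over all transcripts TBBC 2 was highest in 30.2% and TBBC 3 lowest in 34.4%. Among the 4319 transcripts whose TBBC rats all lay above the vehicle rats, as in 7 members, these shares were 41.6% and 45.1%. Of those 7 members, TBBC 2 was highest in Bach1, Srxn1, Txnrd1 and Hmox1 only, and TBBC 3 was lowest in all but Mafg. The order TBBC 2, then TBBC 1, then TBBC 3 held in 6 members, Sqstm1, Bach1, Srxn1, Txnrd1, Hmox1 and Osgin1, and in 16.1% of all transcripts. Under 4 other scalings or background corrections it held in 6 or 7 members and in 13.3% to 23.1% of transcripts. Nqo1 and Keap1 ran TBBC 1, TBBC 2, TBBC 3, and Nfe2l2 ran TBBC 2, TBBC 3, TBBC 1. These 10 genes share the same 3 arrays, so the counts describe these rats and were not tested. TBBC 2 also had the lowest share of probes well above background (67.1%) and the lowest 75th percentile of signal (861, where the 6 arrays ran up to 1038), and TBBC 3 stood apart in summed myeloid (246, against 112 to 148 on the other 5 arrays), fibroblast (51.3, against 25.2 to 33.2), lymphocyte (3.46, against 1.59 to 2.22) and erythroid markers (124, against 181 to 214). The part of these in the order was not tested. The summed injury markers were also highest in TBBC 2 but lowest in TBBC 1.

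**Figure D3:**
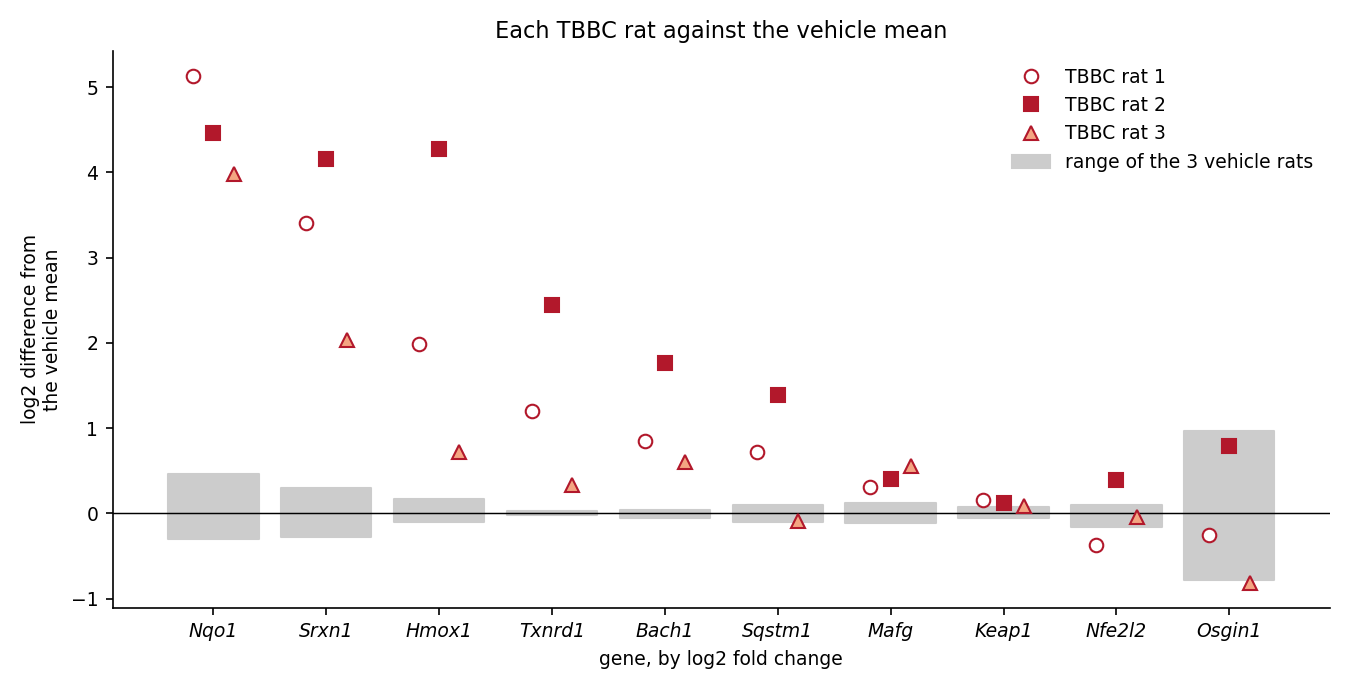
Log2 difference of each TBBC rat from the vehicle mean, for the 10 genes in the order of their log2 fold change, with the range of the 3 vehicle rats as grey bands. Squares (TBBC 2) top the triangles (TBBC 3) for every gene but Mafg, and Hmox1 spans from 0.73 to 4.27.

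The genes whose deviations from the vehicle mean were closest to those of Nqo1 over the 6 arrays, among 12288 named genes, were Derl3, Asns and Spp1. Their root mean square differences from Nqo1 were 0.61, 0.63 and 0.78 on the log2 scale. Derl3, a component of endoplasmic reticulum degradation, lay 6.11, 3.42 and 4.36 above the vehicle mean in TBBC 1, 2 and 3. For Hmox1 the nearest were Zfand2a (0.24), Mthfd2 (0.27) and Cxcl10 (0.35). Zfand2a, an arsenite-inducible zinc finger gene, lay 2.07, 3.75 and 0.82 above the vehicle mean, beside 1.99, 4.27 and 0.73 for Hmox1. Of the genes nearest to Nqo1, Asns and Spp1 rose and Derl3 did not pass (limma, adjusted p = 0.0508). None of the 3 genes nearest to Hmox1 passed. All were picked for sharing the deviations of Nqo1 or Hmox1 on these arrays, so their calls follow from that choice and are no separate result.

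Promoter windows are shown for Nqo1, Srxn1 and Txnrd1, the targets with a sequence that were on average at least 2-fold higher in TBBC rats. RefSeq sequences of build GRCr8, from 250 bases before to 50 after the annotated start, matched 9 of the 10 members, Hmox1 having no entry. Both strands were searched for the antioxidant response core TGACNNNGC, the AP-1 core TGANTCA and the NF-E2 type element TGANTCAGC, which contains the AP-1 core. Capitals mark the matches.
Nqo1 (chr19:52220218-52220517, minus strand): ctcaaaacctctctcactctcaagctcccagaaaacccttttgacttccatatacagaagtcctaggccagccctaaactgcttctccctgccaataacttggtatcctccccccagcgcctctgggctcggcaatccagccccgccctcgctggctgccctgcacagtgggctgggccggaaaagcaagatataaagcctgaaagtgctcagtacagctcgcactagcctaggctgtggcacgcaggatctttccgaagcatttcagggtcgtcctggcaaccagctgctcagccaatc
Srxn1 (chr3:161064562-161064861, plus strand): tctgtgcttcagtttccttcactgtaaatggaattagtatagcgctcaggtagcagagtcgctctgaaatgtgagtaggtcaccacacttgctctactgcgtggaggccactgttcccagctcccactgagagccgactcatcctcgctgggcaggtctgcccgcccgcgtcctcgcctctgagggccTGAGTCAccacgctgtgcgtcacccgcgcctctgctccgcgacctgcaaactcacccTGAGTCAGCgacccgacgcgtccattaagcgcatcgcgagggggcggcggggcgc
Txnrd1 (chr7:22755855-22756154, minus strand): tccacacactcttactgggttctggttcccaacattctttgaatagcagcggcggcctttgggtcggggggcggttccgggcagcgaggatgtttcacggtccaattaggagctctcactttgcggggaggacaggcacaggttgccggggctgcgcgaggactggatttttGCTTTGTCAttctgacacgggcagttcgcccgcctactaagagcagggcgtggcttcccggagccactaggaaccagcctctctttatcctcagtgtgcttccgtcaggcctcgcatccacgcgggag

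The Srxn1 window held the AP-1 core at 2 places, 62 and 5 bases before the start, and the one at the start read TGAGTCAGC, the NF-E2 type element. That element was present in 1.11% of 33469 promoter windows of the same length, and the AP-1 core in 7.33%. The Txnrd1 window of the start shown held 1 antioxidant response core on the opposite strand, and its other annotated start held none. The core was present in 12.1% of all windows, and among the members also in Nfe2l2, after the start. The AP-1 core was also present in Bach1. The windows of Nqo1, Keap1, Sqstm1, Mafg and Osgin1 held none of the 3 motifs, which says only that these letters are not in this window. A match is a description of the sequence and not of binding.

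Other genes linked to Nrf2 were described from 5 lists by role, 90 genes in all, of which 84 were tested. Of these 84, 5 rose, 0 fell and 79 did not pass, where 0.255% of all transcripts were called higher. Without adjustment limma gave 25 higher and 4 lower at p under 0.05, where 9.55% of all transcripts were higher and 10.4% lower. The median log2 fold change was 0.27, beside -0.02 over all transcripts. The count of 5 was 0 without TBBC 2, vehicle 1 or vehicle 2, 1 without vehicle 3 and 10 without TBBC 3. With slide as a fixed term it was 1, and that gene, Ephx1, was not among the 5. All 84 share the same 6 arrays, and the lists were chosen with earlier results known, so these counts are descriptive.

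None of the regulators and partners beyond the members passed. Of 17 tested, 1 had an unadjusted p under 0.05 in limma, where 20% of all transcripts did, and the median log2 fold change was 0.06. Nfe2l1, the Nrf1 gene that governs proteasome genes, was at 0.50 ± 0.19 (limma, adjusted p = 0.208), and Maff, another small Maf, was at 1.51 ± 0.63 (adjusted p = 0.252) with deviations of 1.87, 2.57 and 0.10 in TBBC 1, 2 and 3.

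Of 26 glutathione and thioredoxin genes, 2 rose, 0 fell and 24 did not pass, with a median of 0.34. Gstp1, a glutathione transferase, rose with a log2 fold change of 2.41 ± 0.22 (limma, adjusted p = 0.0181), and its TBBC rats lay 2.45, 2.52 and 2.25 above the vehicle mean, closer together than for any of the members' targets. Mgst1, a membrane-bound glutathione transferase, rose with a log2 fold change of 1.06 ± 0.11 (limma, adjusted p = 0.0293), with the same rats 1.04, 1.19 and 0.96 above the vehicle mean. Outside the rule for naming genes, and chosen after its values were seen, Slc7a11, the cystine importer, had the largest fitted log2 fold change of all transcripts, 6.52 ± 0.96, and did not pass (limma, adjusted p = 0.0541). Its TBBC rats lay 7.07, 8.24 and 4.27 above the vehicle mean. The Slc7a11 probe was well above background on all 3 TBBC arrays and on 2 of 3 vehicle arrays. It thus entered the test through the TBBC group only. Its vehicle levels were near background (-5.69 to -4.95 on the log2 scale), so the size and rank of the fold change are uncertain. Gclc, the catalytic subunit of glutathione synthesis, chosen likewise, was the lowest of the list at -1.46 ± 0.83 and did not pass (limma, adjusted p = 0.378). The groups overlapped, with deviations from the vehicle mean of -0.17, -0.99 and -3.24 in TBBC 1, 2 and 3.

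Of 7 NADPH and carbon genes, 1 rose and 0 fell. This was Tkt, the transketolase of the pentose phosphate pathway, at 1.22 ± 0.15 (limma, adjusted p = 0.0387). Of 26 detoxification and efflux genes, 2 rose and 0 fell, both ATP-driven efflux pumps: Abcc4 at 2.12 ± 0.24 and Abcc3 at 1.90 ± 0.22 (limma, adjusted p = 0.0343 for both). At an unadjusted p under 0.05 in limma, 7 of the 26 were higher and 3 lower (9.55% and 10.4% of all transcripts). In 6 every TBBC rat lay above every vehicle rat, and in 7 below (13.1% and 15.2% of all transcripts). Of 8 heme and iron genes none passed, and 3 had an unadjusted p under 0.05 in limma, all higher, as had 9.55% of all transcripts. The smallest p belonged to Blvrb, a biliverdin reductase, at 0.72 ± 0.15 (limma, adjusted p = 0.0893), followed by the heme transporter Slc48a1 at 0.53 ± 0.16 (adjusted p = 0.162). The plot by role shows Nqo1 and these 5 genes as the filled points.

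**Figure D4:**
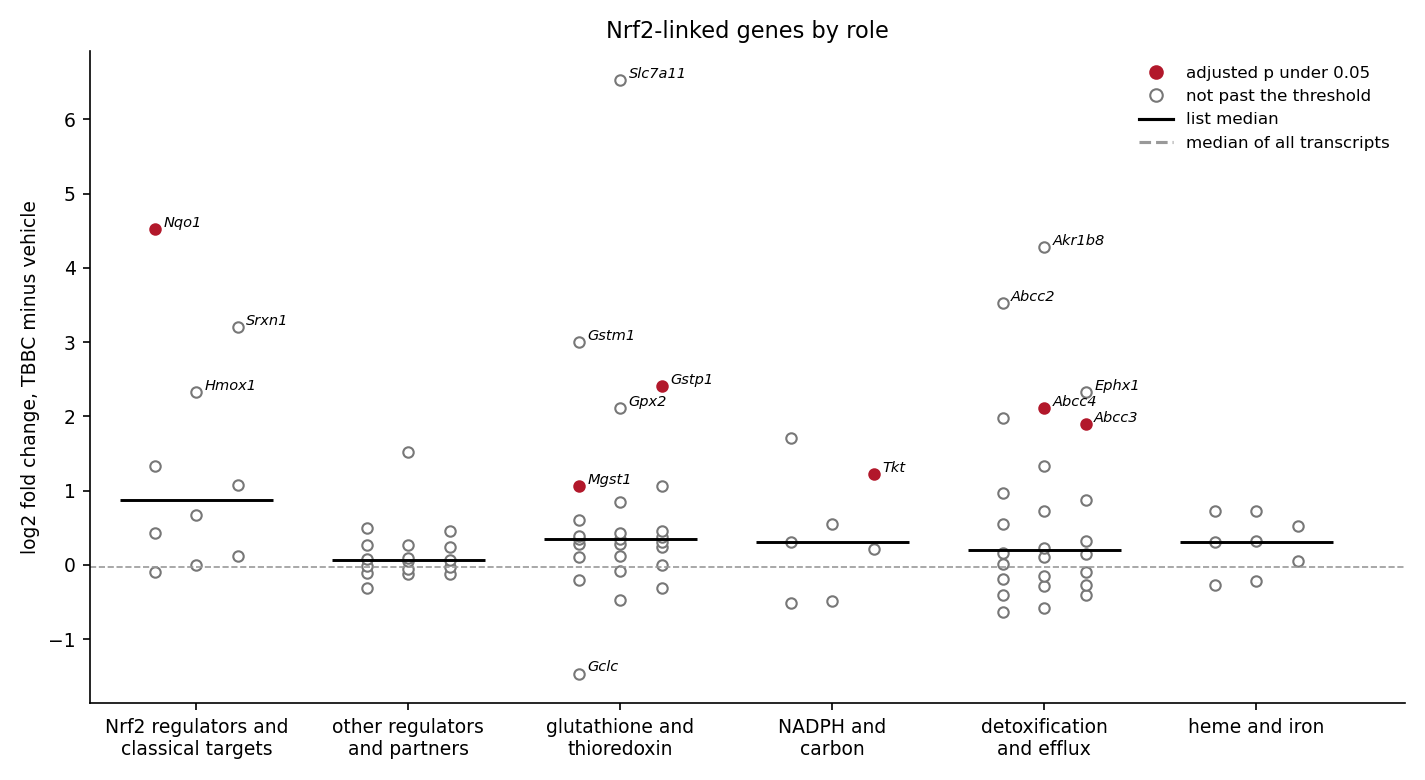
Log2 fold change, TBBC minus vehicle, of the 10 members and of the 84 other tested genes linked to Nrf2, by role. Filled red points passed the threshold (Nqo1, Gstp1, Mgst1, Tkt, Abcc4 and Abcc3), black lines are list medians, and the dashed line is the median of all transcripts, -0.02.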

How the data were processed

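Renal cortex RNA of 3 TBBC-treated and 3 vehicle-treated rats was measured on 1-colour arrays, with groups and replicate numbers taken from the sample titles. The deposited intensity of each spot is Feature Extraction's processed signal, background-subtracted and unscaled; the headers name version 10.7.1.1 and the submitters' processing notes 10.7. The authors' value table is a linear ratio of that signal to a value that differed by at most 0.3% from the 75th percentile. It has no log and no centring of probes, and its column medians were 0.113, 0.107 and 0.114 for TBBC 1 to 3 and 0.111, 0.112 and 0.113 for vehicle 1 to 3.

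Of 62976 spots, 1439 control spots were left out. Unversioned accessions were matched to a RefSeq gene table (GRCr8), which named 28206 probes and left 33331 unnamed. The deposited signals were scaled to the 75th percentile of each array and put on the log2 scale, and outlier spots (0 to 9 per array, none of a member) were left out. Probes entered the test if either group had them well above background wherever they were not outliers. The brightest such probe represents a gene, and probes with no name were kept singly. Groups were compared with limma 3.58.1 (lmFit, eBayes, two-sided) in R 4.3.3 and Benjamini-Hochberg adjustment over 32956 transcripts. In simulated data this recovered 25 of 50 changes of 2-fold, 43 of 50 of 4-fold and 48 of 50 of 8-fold. There were 14 false calls among 32750 unchanged transcripts. The simulation gave both groups the same SD per transcript and no slide effect, unlike these arrays, where TBBC was more spread. Genes named are all members, those past the threshold in each list or otherwise the 2 with the smallest p, and the 3 nearest to Nqo1 and Hmox1. Some single markers are also named where they made up much of a marker sum or went against it, but not for every list. Members and lists were chosen with earlier results of these data known. The number of arrays limits the precision. Alternatives were other scalings, normexp (on median spot signals), the value table, filters, probe means, variance models, slide (statmod 1.5.0 with limma), replicate block, each array left out, and, added after seeing the data, each probe by itself. The files name build rn4, so no array coordinates are given.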

Additional observations from a re-analysis of the deposited data

How the results depend on the processing

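Nqo1 kept its direction in 20 of 20 alternatives and its call in 16, with log2 fold changes of 4.00 to 5.13. Srxn1, Hmox1, Txnrd1, Bach1, Mafg, Sqstm1 and Keap1 also kept their direction in all 20, and Srxn1 passed in 4. Nfe2l2 turned positive in 6, with 0.0026 under median scaling, 0.013 under normexp with an offset of 50, and -0.20 to 0.17 with 1 array left out. It was -0.37 with slide as a fixed term or within slide 1 alone, without passing. Osgin1 turned positive in 2, running from -0.53 to 0.39 with 1 array left out. The count of members called was 2, Nqo1 and Srxn1, under normexp, under eBayes with trend and robust, and with array weights. It was 0 within slide 1 alone (6 at an unadjusted p under 0.05 in limma) and ran from 0 to 2 with 1 array left out. The count of other Nrf2-linked genes, 5, was 10 under normexp, 1 with no filter on dim probes, 13 under eBayes with trend and robust, 8 with array weights, 1 with slide as a fixed term, 8 with each probe tested by itself, and 0 to 10 with 1 array left out. The count of all transcripts, 175, was 765 under normexp, 52 with no filter on dim probes, 1087 under eBayes with trend and robust, 48 with slide as a fixed term, 64 within slide 1 alone, and 6 to 263 with 1 array left out. The cause was not tested. The fits with slide as a fixed term or within slide 1 rest on TBBC 1 for the group difference, since slide 2 holds no vehicle array. With slide as a fixed term the other Nrf2-linked gene called was Ephx1, not one of the 5. With slide as a random block, which uses all arrays, Nqo1 was at 4.63 (limma, adjusted p = 0.0145), and 1 member, 4 other Nrf2-linked genes and 122 transcripts were called.

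The labels do not say that equal replicate numbers share anything, and same-numbered rats did not deviate together (correlations across transcripts of -0.09, 0.03 and -0.07). With the replicate number as a block, limma called 0 members, 0 other Nrf2-linked genes and 0 transcripts (6, 26 and 5366 at an unadjusted p under 0.05), with fewer degrees of freedom. The block left the log2 fold change of Nqo1 at 4.53 (adjusted p = 0.104).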
